A study of Mus musculus with 6 samples.

Results

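The nuclear-encoded genes of oxidative phosphorylation were taken from the deposited count table by gene symbol, as the numbered Nduf genes of complex I, the Sdh genes of complex II, the Uqcr genes and Cyc1 of complex III, Cycs, 11 Cox genes of complex IV and every gene whose symbol starts with Atp5. The rule found 79 of the 11881 listed genes (0.665%). Complex I had 37 members, complex II 4, complex III 9, complex IV 11 and ATP synthase (complex V) 17, and Cycs stood for cytochrome c. All 79 had enough counts to be tested. The rule reads symbols alone.

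The libraries came from microglia, the resident macrophages of the brain, sorted from the hippocampus of male mice at postnatal days 17 to 21 as CD11b-positive cells with low CD45. There were 3 libraries from Mll5+/- mice, which carry 1 altered copy of Mll5 (now Kmt2e, a gene of the MLL family), and 3 from WT mice. The animals are numbered singly in the labels, so each library was taken as 1 mouse. The labels do not say which strain was used, which part of the gene is altered or how single animals were handled. Levels are CPM, a count scaled to a common library size (here with TMM factors), and fold changes run as Mll5+/- over WT. The targeted gene Kmt2e had 648, 298 and 513 CPM in Mll5+/- libraries and 480, 378 and 688 CPM in WT libraries (log2 fold change -0.08, SE 0.314, 95% interval -0.79 to 0.63), so a copy less was not visible in the count over the whole gene. Transcripts with an altered part would be counted with intact ones, and "Mll5+/- libraries" and "WT libraries" are throughout the libraries so labelled.

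Oxidative phosphorylation makes ATP in the inner mitochondrial membrane. Complexes I and II pass electrons to coenzyme Q, complex III hands them through cytochrome c to complex IV, which reduces oxygen, and ATP synthase uses the proton gradient built on the way. Most subunits are encoded in the nucleus and imported, while a few core subunits of complexes I, III, IV and V are encoded by mitochondrial DNA. Microglia are known to respire at rest and to shift towards glycolysis on inflammatory activation.

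Between genotypes, no single nuclear-encoded gene of the respiratory chain or ATP synthase passed the test. Their median log2 fold change was 0.07, beside 0.02 for all 10832 genes tested. A gene of ATP synthase subunit c, Atp5g1, stood at 18.1 ± 5.68 CPM in Mll5+/- libraries and 6.99 ± 0.503 CPM in WT libraries (SD, n = 3 each). Atp5g1 was the single member under an unadjusted edgeR p of 0.05 (1.27% of members, beside 2.88% of all genes tested). In the mean log2 level of the 79 genes the genotype means lay 0.04 apart, with an SD between libraries of 0.11 among Mll5+/- and 0.31 among WT mice (n = 3 each).

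The subunit c genes are shown with their upstream sequence because Atp5g1 had the smallest p of the members, without passing the test (edgeR adjusted p = 0.9995). Atp5g1, Atp5g2 and Atp5g3 encode 1 mature protein, the proton-carrying ring subunit of ATP synthase, behind different import sequences. Cycs is shown beside them as the single gene of cytochrome c here. Each line gives the 250 bases before the annotated start, 5′ to 3′ on the gene's strand (minus for all 4 genes), from RefSeq on GRCm38.p6. Capitals mark matches to the 7-letter motif cores described after the lines.
Atp5g1, chr11:96075632-96075881: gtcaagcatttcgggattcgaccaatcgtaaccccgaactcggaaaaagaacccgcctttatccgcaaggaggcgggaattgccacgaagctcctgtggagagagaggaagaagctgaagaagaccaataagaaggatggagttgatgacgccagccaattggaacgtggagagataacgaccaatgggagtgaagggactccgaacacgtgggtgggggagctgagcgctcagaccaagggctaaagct
Atp5g2, chr15:102671048-102671297: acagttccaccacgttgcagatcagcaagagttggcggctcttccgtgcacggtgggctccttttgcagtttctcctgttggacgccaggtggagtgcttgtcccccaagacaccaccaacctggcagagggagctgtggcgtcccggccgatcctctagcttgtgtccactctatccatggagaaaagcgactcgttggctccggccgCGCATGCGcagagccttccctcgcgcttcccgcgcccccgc
Atp5g3, chr2:73911327-73911576: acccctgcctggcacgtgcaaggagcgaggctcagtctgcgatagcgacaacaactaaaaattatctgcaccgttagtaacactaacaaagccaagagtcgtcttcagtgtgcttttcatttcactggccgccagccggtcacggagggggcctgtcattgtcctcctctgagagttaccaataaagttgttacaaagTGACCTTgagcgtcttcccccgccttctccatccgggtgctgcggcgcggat
Cycs, chr6:50566570-50566819: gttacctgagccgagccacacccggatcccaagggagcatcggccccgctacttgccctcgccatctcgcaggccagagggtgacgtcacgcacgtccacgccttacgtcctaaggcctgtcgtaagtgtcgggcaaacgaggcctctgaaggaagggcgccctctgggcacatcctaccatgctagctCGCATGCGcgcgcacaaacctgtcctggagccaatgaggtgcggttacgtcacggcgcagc

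The cores searched on both strands were GCATGCG for NRF1, CCGGAAG for the ETS factor GABPA, ATGGCGG for YY1 and AAGGTCA for ESRRA, factors known as regulators of respiratory genes. Atp5g2 and Cycs each hold an 8-base run in which the NRF1 core can be read on both strands, as overlapping matches. Atp5g3 holds the ESRRA core on the opposite strand, and Atp5g1 holds none of the 4 cores in this window. RefSeq windows of 300 bases (250 before and 50 after the start) were matched for 66 of the 79 members. The NRF1 core was present in 12 of them (18.2%), beside 7.77% of the tested genes with a window and 4.01% of all genes with one. The ESRRA core was present in 8 (12.1%, beside 3.85% and 5.38%), the ETS core in 17 (25.8%, beside 21.8% and 9.93%) and the YY1 core in 10 (15.2%, beside 10.2% and 4.69%). These shares are a description of letters in a window, and a match is not a binding site.

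The first question was whether any of the 79 genes differed between genotypes. In edgeR's quasi-likelihood test 0 members passed an adjusted p of 0.05, and 0 of all 10832 genes did (0% called; smallest adjusted p 0.9995). Under an unadjusted p of 0.05 there was 1 member of 79 (1.27%), against 2.88% of all genes tested. It was higher in Mll5+/- libraries, where 1.36% of all genes met that p, and 0 members were lower, where 1.52% of all genes did. DESeq2 called 0 members, with 29 of 11377 genes called overall (0.255%), and had 2 members under an unadjusted p of 0.05, Atp5g1 and Uqcrq, beside 4.87% of its genes. Limma-voom called 0 members and 0 genes (0%) and had 1 member under an unadjusted p of 0.05, Atp5g1, beside 4.31% of genes.

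Of the 79 members, 45 had a positive log2 fold change (57.0%, beside 51.8% of all genes) and 34 a negative one. The medians by complex were 0.02 for complex I, 0.15 for complex II, -0.07 for complex III, 0.19 for complex IV and 0.11 for complex V, and the middle range of all genes ran from -0.36 to 0.40. With 1 library left out, they ranged from -0.13 to 0.28 in complex I (lowest without Mll5+/- replicate 3, highest without WT replicate 3), from 0.15 to 0.44 in complex II (highest without Mll5+/- replicate 1) and from -0.17 to 0.24 in complex III (lowest without WT replicate 1, highest without Mll5+/- replicate 1). They ranged from -0.19 to 0.40 in complex IV (lowest without WT replicate 1, highest without WT replicate 3) and from -0.11 to 0.29 in complex V (lowest without Mll5+/- replicate 2, highest without WT replicate 3), so the sign of the median turned in every complex but complex II. Levels did not overlap between genotypes in 6 members (7.59%), a share near the 9.32% of all genes tested. They were higher in Mll5+/- libraries for 2 members, Atp5g1 and Ndufc2 (4.68% of all genes), and lower for 4, Ndufs1, Ndufv3, Ndufa9 and Ndufb5 (4.64% of all genes). With 3 libraries a side and a common biological coefficient of variation of 80.4% over all genes, the median SE of a member's log2 fold change was 0.62, beside 0.63 for all genes. A shift of 1 on the log2 scale in either direction lay outside the 95% interval for 7 members (8.86%, beside 19.5% of all genes), namely Ndufs3, Cox7a2l, Cox7b, Cox7c, Atp5a1, Atp5c1 and Atp5j2. For every other member the interval includes such a shift in at least 1 direction.

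**Figure D1:**
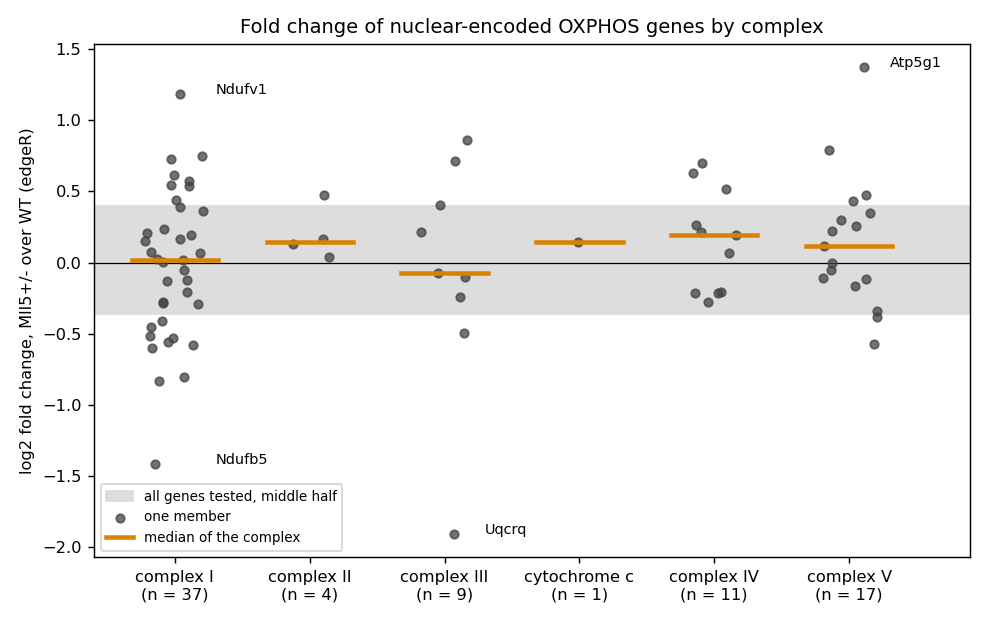
Log2 fold change (Mll5+/- over WT, edgeR) of each of the 79 members by complex, with orange bars at the medians and a grey band for the middle range of all genes tested (-0.36 to 0.40). The medians of all 5 complexes and the single value of Cycs lie inside the band, and Atp5g1 (1.37) and Uqcrq (-1.91) lie at the ends.

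ATP synthase holds the member of smallest p. Atp5g1, on chromosome 11 from 95959678 to 95966496 (mm39), had 12.5, 17.9 and 23.9 CPM in Mll5+/- libraries against 7.57, 6.70 and 6.70 CPM in WT libraries. Every Mll5+/- library lay above every WT library, and the WT libraries were close to each other. The log2 fold change was 1.37 (SE 0.541, 95% interval 0.15 to 2.60, edgeR unadjusted p = 0.0323, adjusted p = 0.9995), and it ranked 193rd of the tested genes by p. Over the 13 alternatives it ranged from 1.11 to 1.57, with an unadjusted p from 0.0175 to 0.0939 that was under 0.05 in 8 of them. With 1 library left out it stayed under 0.05 only without Mll5+/- replicate 1, and ran from 0.0636 to 0.0939 without any of the other 5.

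The other genes of subunit c did not share that separation. Atp5g2 had 18.9, 28.5 and 25.6 CPM in Mll5+/- libraries against 14.3, 21.4 and 18.6 CPM in WT libraries, and the groups overlapped (log2 fold change 0.43, SE 0.423, edgeR unadjusted p = 0.337). Atp5g3 had 0.316, 13.03 and 3.88 CPM in Mll5+/- libraries and 3.09, 2.35 and 6.97 CPM in WT libraries. Its highest library was 41.3 times its lowest, both of them Mll5+/-, and the log2 fold change was 0.47 (SE 1.27).

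Summed over the 3 genes, subunit c had 31.7, 59.4 and 53.4 CPM in Mll5+/- libraries against 24.9, 30.4 and 32.2 CPM in WT libraries. The groups overlap in this sum, since the lowest Mll5+/- library lies between the WT libraries. Atp5g1 made up 39.4%, 30.2% and 44.7% of the sum in Mll5+/- libraries against 30.4%, 22.03% and 20.8% in WT libraries, which again overlap. These sums were formed after the values were seen. Near-identical copies of these genes could share their reads, and the labels do not say how the authors' counting split such reads.

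The catalytic head of ATP synthase was measured with smaller error than subunit c. Atp5a1, the alpha subunit, had 76.6, 67.7 and 57.1 CPM in Mll5+/- libraries and 47.5, 61.9 and 63.6 CPM in WT libraries, with a log2 fold change of 0.22 (SE 0.285, 95% interval -0.43 to 0.87). Atp5b, the catalytic beta subunit, averaged 39.5 ± 10.3 CPM in Mll5+/- libraries and 44.4 ± 13.7 CPM in WT libraries (SD, n = 3 each), a log2 fold change of -0.17 (SE 0.374). Atp5c1, the gamma subunit that turns inside the head, had 45.5, 39.8 and 36.4 CPM in Mll5+/- libraries against 55.2, 46.2 and 29.8 CPM in WT libraries (log2 fold change -0.11, SE 0.348). The groups overlap in all 3 genes, and the intervals of Atp5a1 and Atp5c1 leave out a shift of 1. The span of Atp5a1 overlaps that of Haus1 in the deposited table.

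Atp5j, which encodes coupling factor 6 of the peripheral stalk, was the member of complex V with the most negative fold change. It had 6.55, 13.1 and 8.98 CPM in Mll5+/- libraries against 11.4, 11.1 and 20.3 CPM in WT libraries (log2 fold change -0.58, SE 0.583, edgeR unadjusted p = 0.35). The other 10 members of complex V, among them the remaining peripheral stalk subunits Atp5pb, Atp5h and Atp5o and the small central stalk subunits Atp5d and Atp5e, had log2 fold changes between -0.39 and 0.79, with unadjusted p-values from 0.514 up. The entry Atp5o spans 247.3 kb in the deposited table, across the genes Donson, Itsn1 and Cryzl1, so its count cannot be assigned to that gene alone.

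**Figure D2:**
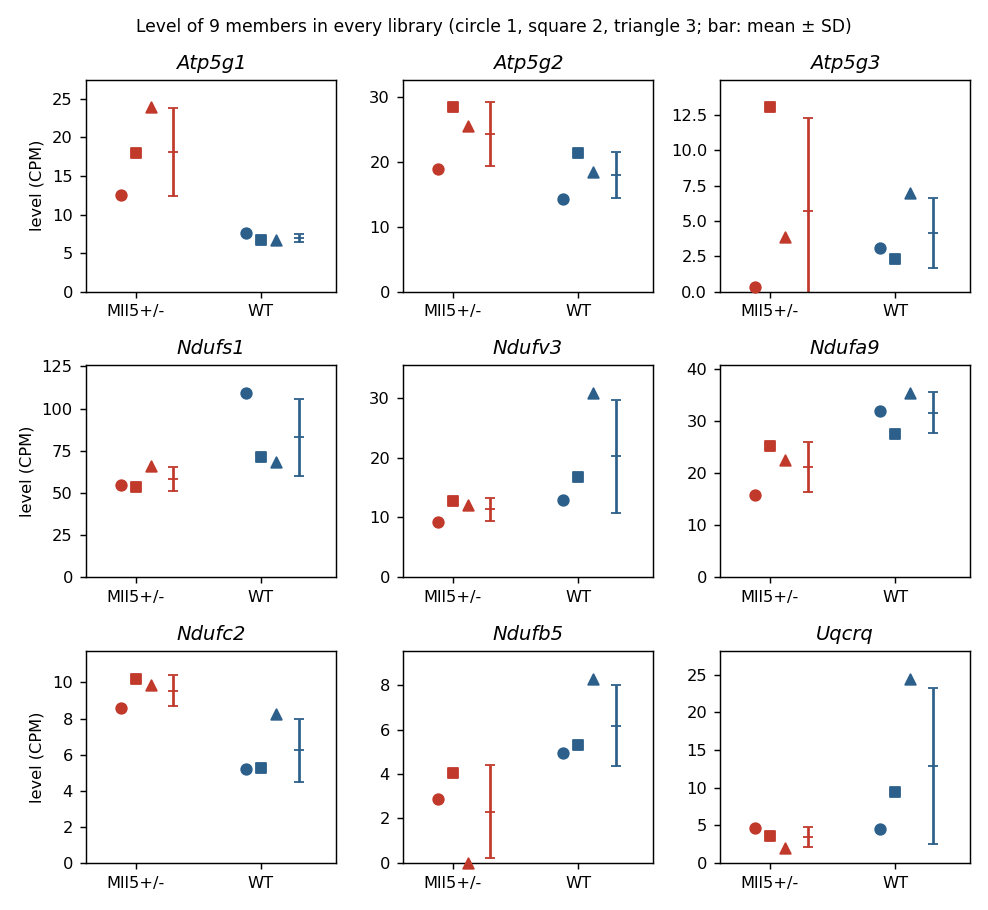
Level in CPM of 9 members in every library, Mll5+/- left and WT right in each panel, with the mean ± SD beside the points (the lower end of 1 error bar of Atp5g3 falls below the axis). Atp5g1 separates the genotypes with 12.5 to 23.9 CPM in Mll5+/- libraries and 6.70 to 7.57 CPM in WT libraries, while Atp5g2, Atp5g3 and Uqcrq overlap.

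Complex I oxidises NADH, and its nuclear-encoded core consists of 7 subunits that carry the flavin and the chain of iron-sulfur clusters. Ndufs1, the largest of them, on chromosome 1 from 63182755 to 63215992, had 54.5, 53.5 and 66.3 CPM in Mll5+/- libraries against 109, 71.5 and 68.5 CPM in WT libraries. All Mll5+/- libraries lay below all WT libraries, the closest pair being 66.3 CPM in an Mll5+/- library and 68.5 CPM in a WT library. The log2 fold change was -0.52 (SE 0.297, 95% interval -1.19 to 0.16, edgeR unadjusted p = 0.116), the smallest p in complex I. The span of Ndufs1 overlaps that of Eef1b2 in the deposited table.

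Ndufv1, which binds NADH and the flavin, had 18.3, 19.1 and 2.36 CPM in Mll5+/- libraries against 7.28, 6.04 and 4.23 CPM in WT libraries. A pair of Mll5+/- libraries stood above all WT libraries and the remaining 1 below them, giving a log2 fold change of 1.18 with an SE of 0.830 (unadjusted p = 0.189 in edgeR). Its partner Ndufv2, also part of the NADH-oxidising module, had 31.99, 32.6 and 35.4 CPM in Mll5+/- libraries against 43.3, 35.2 and 58.6 CPM in WT libraries, with a log2 fold change of -0.45 (SE 0.337). The groups overlap in Ndufv2 by a single WT library at 35.2 CPM, below the highest Mll5+/- library at 35.4 CPM.

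Of the core subunits nearer to the coenzyme Q site, Ndufs3 was the best measured, with 78.03, 77.7 and 72.02 CPM in Mll5+/- libraries and 42.2, 75.01 and 88.1 CPM in WT libraries (log2 fold change 0.15, SE 0.323, 95% interval -0.58 to 0.88). The WT libraries covered the whole range of the Mll5+/- libraries. The span of Ndufs3 overlaps that of Kbtbd4 in the deposited table. Ndufs8 averaged 8.24 ± 1.81 CPM in Mll5+/- libraries and 7.20 ± 2.68 CPM in WT libraries (SD, n = 3 each). Ndufs7, which carries the last iron-sulfur cluster before the quinone, averaged 10.1 ± 5.30 CPM in Mll5+/- libraries and 10.1 ± 6.88 CPM in WT libraries (SD, n = 3 each), a log2 fold change of 0.01 with an SE of 0.791. None of these 3 core genes separated the genotypes.

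Among the accessory subunits, which surround the core, 4 further genes of complex I had no overlap between genotypes. Ndufv3, a small subunit of the NADH-oxidising module, had 9.19, 12.7 and 12.2 CPM in Mll5+/- libraries against 12.96, 16.8 and 30.8 CPM in WT libraries (log2 fold change -0.83, SE 0.524, edgeR unadjusted p = 0.148). Ndufa9, at the joint of the matrix and membrane arms, had 15.9, 25.2 and 22.5 CPM in Mll5+/- libraries against 31.98, 27.5 and 35.4 CPM in WT libraries (log2 fold change -0.58, SE 0.388, edgeR unadjusted p = 0.172). Both genes were lower in every Mll5+/- library, by gaps that are small next to the spread within WT libraries.

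Ndufc2, a subunit of the membrane arm, was on the higher side, with 8.56, 10.2 and 9.88 CPM in Mll5+/- libraries against 5.18, 5.27 and 8.26 CPM in WT libraries (log2 fold change 0.61, SE 0.657, edgeR unadjusted p = 0.375). Ndufb5, also of the membrane arm, had 73, 115 and 0 counts in Mll5+/- libraries against 118, 138 and 239 counts in WT libraries. The Mll5+/- library without a count of Ndufb5 allows a level of up to 0.142 CPM, and the log2 fold change was -1.42 (SE 1.55). Its span overlaps that of Mrpl47. Ndufa11, of the membrane arm as well, had 15, 118 and 59 counts in Mll5+/- libraries against 69, 0 and 230 counts in WT libraries, where the library at 0 allows up to 0.1155 CPM.

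A further 25 genes of complex I had log2 fold changes between -0.80 and 0.75 and unadjusted p-values from 0.373 up. They include Ndufs4, an accessory subunit whose loss in mice gives a Leigh-like disease, at 5.88 ± 2.41 CPM in Mll5+/- libraries and 8.93 ± 6.07 CPM in WT libraries (SD, n = 3 each). They also include Ndufa4, which carries a complex I name and is now regarded as a subunit of complex IV, at 8.02 ± 2.03 CPM in Mll5+/- libraries and 8.73 ± 4.81 CPM in WT libraries (SD, n = 3 each). Both overlapped between genotypes.

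Complex II, succinate dehydrogenase, also belongs to the tricarboxylic acid cycle and is encoded in the nucleus alone. Sdha, the flavoprotein, had 33.97, 54.6 and 55.6 CPM in Mll5+/- libraries and 59.8, 43.8 and 24.8 CPM in WT libraries (log2 fold change 0.17, SE 0.405). Sdhb, the iron-sulfur subunit, had 23.9, 34.97 and 36.2 CPM in Mll5+/- libraries and 27.7, 11.6 and 29.2 CPM in WT libraries (log2 fold change 0.47, SE 0.465, edgeR unadjusted p = 0.335). In each gene the Mll5+/- and WT libraries overlapped. The membrane anchors Sdhc, at 8.03 ± 7.80 CPM in Mll5+/- libraries and 7.83 ± 1.54 CPM in WT libraries, and Sdhd, at 10.7 ± 7.27 CPM in Mll5+/- libraries and 9.84 ± 4.70 CPM in WT libraries (SD, n = 3 each), had log2 fold changes of 0.04 and 0.13. All 4 fold changes of the complex were positive and each was smaller than its SE, except that of Sdhb (0.47, SE 0.465).

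Complex III held the member of most negative fold change. Uqcrq, a small subunit that sits beside cytochrome b, lies on chromosome 11 from 53318749 to 53321654 and had 4.69, 3.51 and 2.03 CPM in Mll5+/- libraries against 4.56, 9.47 and 24.5 CPM in WT libraries. Its highest library, a WT library, was 12.1 times its lowest, an Mll5+/- library. The lowest WT library, 4.56 CPM, lay below the highest Mll5+/- library, 4.69 CPM. The log2 fold change was -1.91 (SE 0.842, 95% interval -3.82 to 0.00, edgeR unadjusted p = 0.0501). Over the 12 alternatives that kept the gene the log2 fold change ranged from -2.33 to -1.04 and the unadjusted p from 0.0268 to 0.352, and p was under 0.05 in 4 of them.

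The catalytic subunits of complex III overlapped between genotypes. Uqcrfs1, the Rieske iron-sulfur protein, had 8.24, 25.7 and 27.9 CPM in Mll5+/- libraries and 8.86, 16.6 and 27.7 CPM in WT libraries, and Cyc1, cytochrome c1, had 5.29, 15.4 and 11.6 CPM in Mll5+/- libraries and 9.87, 10.7 and 13.3 CPM in WT libraries. Their log2 fold changes were 0.22 (SE 0.624) and -0.07 (SE 0.613). The core proteins Uqcrc1 and Uqcrc2 averaged 22.6 ± 4.95 and 20.3 ± 8.68 CPM in Mll5+/- libraries, against 26.8 ± 4.62 and 28.7 ± 11.1 CPM in WT libraries (SD, n = 3 each).

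Uqcrh, the hinge protein that holds cytochrome c1, had 12.7, 19.2 and 28.97 CPM in Mll5+/- libraries against 8.45, 13.3 and 15.4 CPM in WT libraries (log2 fold change 0.71, SE 0.526, edgeR unadjusted p = 0.21). Uqcr11, a small subunit of the membrane part, had 54, 85 and 135 counts in Mll5+/- libraries and 0, 33 and 145 counts in WT libraries, and the WT library at 0 allows up to 0.1254 CPM. Neither gene separated the genotypes. The remaining members of the complex, Uqcr10 and Uqcrb, had log2 fold changes of 0.41 and -0.10.

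Cycs, the electron carrier between complexes III and IV and a trigger of apoptosis when released, had 34.6, 8.46 and 5.67 CPM in Mll5+/- libraries against 16.7, 15.01 and 12.4 CPM in WT libraries. The Mll5+/- libraries lay on both sides of the WT libraries, with 1 far above and the other 2 below. The log2 fold change was therefore small beside its error, 0.14 (SE 0.712, 95% interval -1.47 to 1.76). Among the Mll5+/- libraries the spread of Cycs on the log2(CPM + 1) scale was 2.42, against 0.40 among WT libraries.

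Complex IV, cytochrome c oxidase, had the highest median fold change of the complexes with several members, 0.19, and 0 of its 11 genes separated the genotypes. Cox5a, a subunit on the matrix side, had 18.6, 26.8 and 37.3 CPM in Mll5+/- libraries against 27.4, 17.8 and 12.5 CPM in WT libraries (log2 fold change 0.52, SE 0.478). Cox5b, the zinc-binding subunit, had 12.7, 7.65 and 28.4 CPM in Mll5+/- libraries against 7.40, 6.08 and 16.4 CPM in WT libraries (log2 fold change 0.70, SE 0.688). A pseudogene, Cox5b-ps, is listed separately, at 1.53 ± 0.777 CPM in Mll5+/- libraries and 1.05 ± 0.556 CPM in WT libraries (SD, n = 3 each), and reads of the 2 could have been split between them.

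Cox8a, a small membrane subunit, had 22.8, 28.6 and 17.01 CPM in Mll5+/- libraries against 9.99, 19.2 and 15.2 CPM in WT libraries, the smallest p of the complex (log2 fold change 0.63, SE 0.475, edgeR unadjusted p = 0.22). Cox4i1, the ubiquitous isoform of the regulatory subunit IV, had 45.3, 44.9 and 17.5 CPM in Mll5+/- libraries and 35.1, 38.3 and 50.9 CPM in WT libraries (log2 fold change -0.21, SE 0.433). The libraries overlapped in both. Cox7a2l, which joins complexes III and IV into supercomplexes, was the most precisely measured of the 79 genes, at 82.96, 99.9 and 124 CPM in Mll5+/- libraries and 87.1, 77.8 and 104 CPM in WT libraries (log2 fold change 0.19, SE 0.261, 95% interval -0.40 to 0.79). The 7 genes of the complex outside the naming rule, Cox7a2l among them, had log2 fold changes between -0.28 and 0.27.

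Levels of different genes were compared per kilobase of transcript, with the median length of each gene's protein-coding transcripts in GENCODE vM21, available for 76 of the 79 members. The median member had 16.1 CPM per kb over the 6 libraries, above 7.21 CPM per kb for all genes tested, and stood at the 69.4th percentile. Complex IV was highest, with a median of 51.2 CPM per kb (88.8th percentile), followed by complex V with 16.1, complex III with 14.95, complex I with 12.5 and complex II with 12.01 CPM per kb. The highest single members were Cox7c with 105.7 and Cox7a2l with 87.0 CPM per kb, and the lowest was Sdhc with 3.98 CPM per kb. Members of 1 complex thus differed widely in level. The annotated transcripts of some members, Atp5g1 among them, differ several-fold in length, so single values depend on the transcript chosen.

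**Figure D3:**
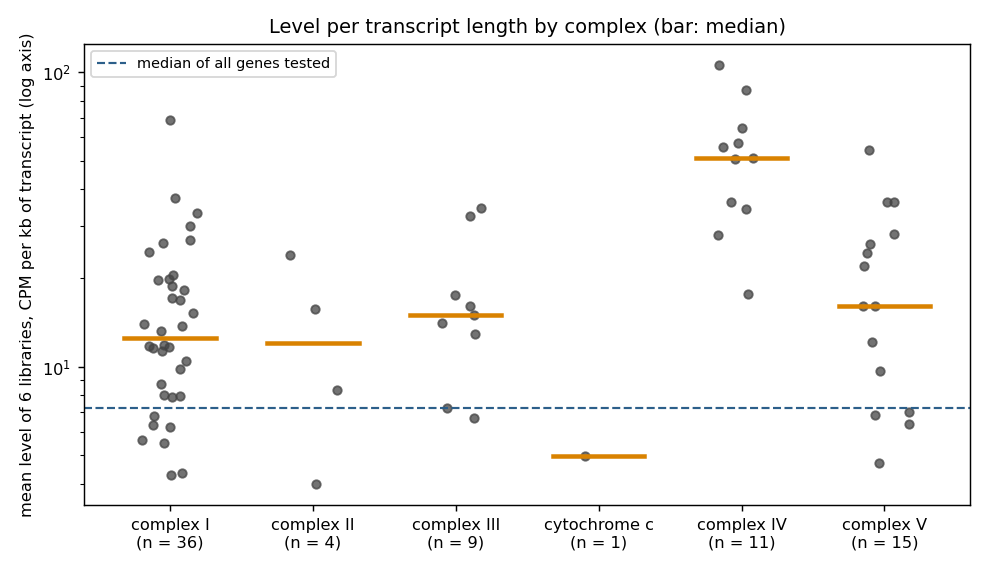
Mean level over the 6 libraries per kilobase of transcript (CPM per kb, log axis) of the 76 members with an annotated length, by complex, with orange bars at the medians and a dashed line at the median of all genes tested (7.21). Complex IV lies highest with a median of 51.2, and complexes I, II, III and V have medians between 12.01 and 16.1.

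The libraries were then set side by side, with each gene's log2(CPM + 1) taken as its deviation from the mean of the 6 libraries and averaged over a group of genes. Over the 79 genes this was -0.08, 0.15 and -0.00 in Mll5+/- libraries and -0.32, -0.05 and 0.30 in WT libraries. The Mll5+/- libraries thus lay inside the range of the WT libraries, with WT replicate 1 at the low end and WT replicate 3 at the high end. WT replicate 1 was the lowest of the WT libraries for 47 members (59.5%, beside 31.4% of all genes tested), and WT replicate 3 was the highest of them for 53 (67.1%, beside 35.6%).

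The complexes shared this pattern to different degrees. Complex III deviated by -0.27, 0.18 and 0.07 in Mll5+/- libraries and by -0.66, 0.14 and 0.55 in WT libraries, and its median gene ran from -0.47 to 0.37 in WT libraries. Complex IV deviated by -0.07, 0.25 and 0.11 in Mll5+/- libraries and by -0.55, -0.14 and 0.40 in WT libraries, and its median gene ran from -0.56 to 0.49 in WT libraries. Complex I had -0.09, 0.05 and 0.03 in Mll5+/- libraries and -0.26, -0.01 and 0.28 in WT libraries, and complex V had -0.05, 0.29 and -0.12 in Mll5+/- libraries and -0.27, -0.09 and 0.24 in WT libraries. Complex II did not share it, with -0.10, 0.20 and 0.07 in Mll5+/- libraries and 0.19, -0.34 and -0.03 in WT libraries. Leaving out WT replicate 3 raised the median log2 fold change of the 79 members to 0.31.

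**Figure D4:**
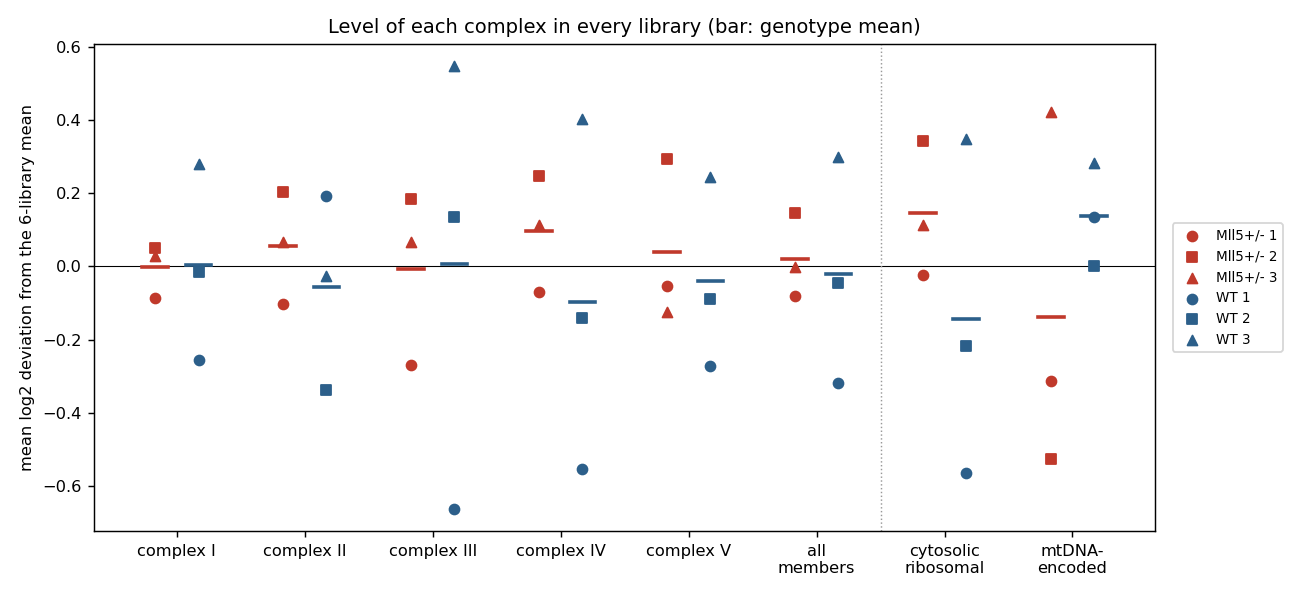
Mean deviation (log2 scale) of each complex, of all 79 members and of 2 other gene groups from the 6-library mean, in every library, Mll5+/- left of WT, with bars at the genotype means. For complexes III and IV the WT libraries run from -0.66 to 0.55 and from -0.55 to 0.40 and enclose the Mll5+/- libraries.

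Other measures moved with this pattern. The 80 cytosolic ribosomal protein genes deviated by -0.02, 0.34 and 0.11 in Mll5+/- libraries and by -0.56, -0.22 and 0.35 in WT libraries, so WT replicate 1 was lowest and WT replicate 3 highest there too. The span among WT libraries also went with transcript length. It was 1.07 for the 26 members with transcripts under 600 nt, 0.66 for the 24 members of 600 to 1000 nt and 0.12 for the 26 members of 1000 nt or more. Among the other genes tested it was 0.67 for the 146 genes under 600 nt, 0.23 for 679 genes of 600 to 1000 nt and 0.05 for 2526 genes of 1000 to 2000 nt. The 2721 other genes of 4000 nt or more ran the opposite way, with 0.12 in WT replicate 1 and -0.09 in WT replicate 3. The median member had 743.5 nt, against 2708 nt for all genes tested, and the part of transcript length in the library pattern was not tested.

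**Figure D5:**
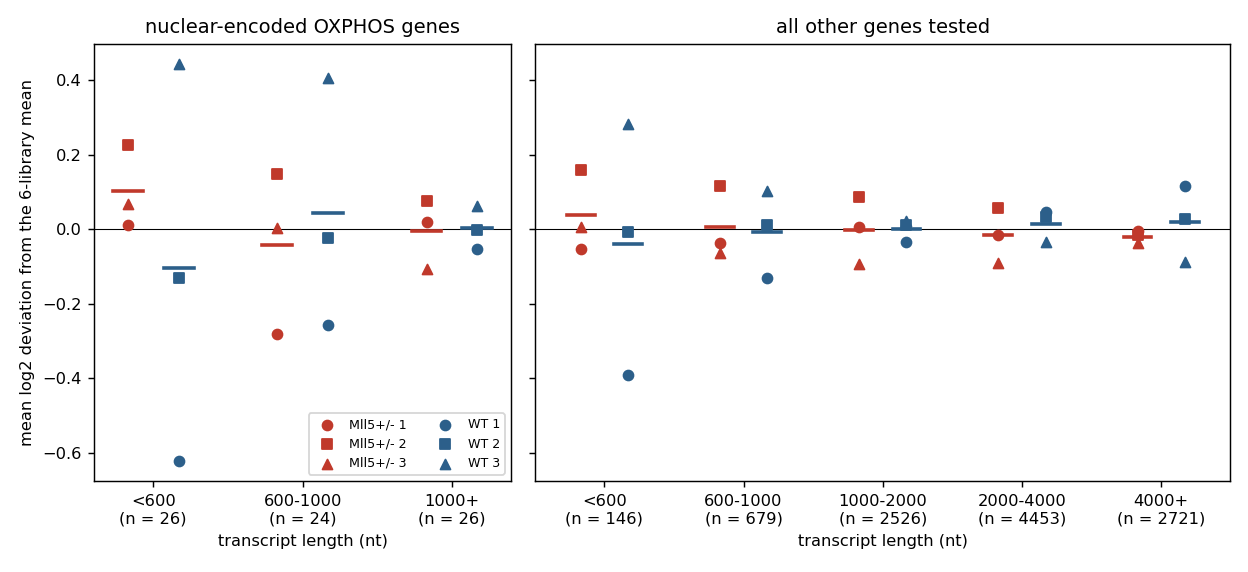
Mean deviation (log2 scale) of the members (left) and of all other genes tested (right) from the 6-library mean, by transcript length in nt, in every library, Mll5+/- left of WT, with bars at the genotype means. The span of the WT libraries is 1.07 for members under 600 nt and 0.12 for members of 1000 nt or more.

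The 13 mitochondrially encoded subunits, which complete complexes I, III, IV and V, did not share the pattern of the nuclear genes. They deviated by -0.31, -0.53 and 0.42 in Mll5+/- libraries and by 0.13, 0.00 and 0.28 in WT libraries. They took 2.09%, 1.88% and 3.56% of all counts in Mll5+/- libraries and 2.90%, 2.56% and 2.89% in WT libraries, while the 79 nuclear genes took 0.150%, 0.170% and 0.157% in Mll5+/- libraries and 0.132%, 0.149% and 0.181% in WT libraries. The ratio of mitochondrial to nuclear counts was 14.0, 11.1 and 22.6 in Mll5+/- libraries and 21.95, 17.2 and 15.9 in WT libraries, with both the lowest and the highest value in an Mll5+/- library. In the test 0 of the 13 were called, their median log2 fold change was -0.25, and mt-Cytb, cytochrome b, had the smallest p, at 1020.0 ± 346 CPM in Mll5+/- libraries and 1524 ± 327 CPM in WT libraries (SD, n = 3 each; log2 fold change -0.58, edgeR unadjusted p = 0.0589).

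Genes that build and feed the complexes were read from lists, with 0 genes called in any of them. Of the 19 tested assembly factors of complex I, 4 of complex II, 5 of complex III, 27 of complex IV and 4 of ATP synthase, the first 4 lists had 0 genes under an unadjusted p of 0.05 and medians of 0.07, 0.21, 0.13 and -0.20. Levels did not overlap between genotypes in 4 genes of these 4 lists, all lower in Mll5+/- libraries. They were Sdhaf2 of complex II (1 of 4 tested), Lyrm7 of complex III (1 of 5), and Cox16 and Pet100 of complex IV (2 of 27), with 0 of 19 for complex I. Of all genes tested 9.32% had no overlap, 4.68% higher and 4.64% lower in Mll5+/- libraries. The 4 genes were singled out after their values were seen. Sdhaf2, which puts the flavin onto Sdha, had 9.71, 3.30 and 8.88 CPM in Mll5+/- libraries against 15.3, 19.4 and 12.6 CPM in WT libraries (log2 fold change -1.11, SE 0.625, edgeR unadjusted p = 0.109). The ATP synthase list, as drawn up here, had 1, Nipsnap1, a mitochondrial protein whose place among the assembly factors is not established. It had 8.99, 16.5 and 24.2 CPM in Mll5+/- libraries against 6.61, 2.62 and 5.86 CPM in WT libraries (log2 fold change 1.72, SE 0.675, edgeR unadjusted p = 0.0321). Its libraries did not overlap between genotypes, as with Atp5g1. The other tested genes of that list, Tmem242, Atpaf1 and Atpaf2, had unadjusted edgeR p-values from 0.812 up. Of all genes tested 2.88% met an unadjusted edgeR p under 0.05. Atpif1, the inhibitor of ATP synthase run in reverse, overlapped, at 42.3 ± 8.96 CPM in Mll5+/- libraries and 26.5 ± 15.2 CPM in WT libraries (SD, n = 3 each).

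Coenzyme Q synthesis had the highest median of the pathway lists, 0.69 over 11 tested genes, beside 0.02 for all genes tested. Of the 11, 8 were positive (72.7%, beside 51.8% of all genes tested), and their median SE was 0.74. Coq9, a lipid-binding protein of that pathway, was its 1 gene under an unadjusted p of 0.05, at 30.9, 31.9 and 69.1 CPM in Mll5+/- libraries against 16.01, 22.8 and 14.3 CPM in WT libraries (log2 fold change 1.31, SE 0.454, edgeR unadjusted p = 0.0184). All Mll5+/- libraries lay above all WT libraries in Coq9, as in 4.68% of all genes tested. An unadjusted edgeR p under 0.05 was met by 2.88% of all genes tested. Summed over the list, levels were 133 to 189 CPM in Mll5+/- libraries and 74.2 to 119 CPM in WT libraries. The list was singled out after its values were seen, and its sum was not tested.

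The other lists had 0 genes under an unadjusted p of 0.05. The 7 tested carriers and porins of ATP export had a median of 0.33, and their member of smallest p, the porin Vdac2, averaged 54.7 ± 13.96 CPM in Mll5+/- libraries and 40.05 ± 5.33 CPM in WT libraries (SD, n = 3 each). The 17 genes of the tricarboxylic acid cycle and pyruvate dehydrogenase had a median of -0.14, and the 15 transcriptional regulators of respiration had -0.16. The 3 tested structural subunits and isoforms outside the symbol rule had a median of -0.14. Of the regulators, Gabpb1, the partner of GABPA, had no overlap, with 19.4, 26.9 and 15.2 CPM in Mll5+/- libraries against 36.2, 33.5 and 31.3 CPM in WT libraries (log2 fold change -0.72, SE 0.392, edgeR unadjusted p = 0.101). Ndufab1, the acyl carrier protein in complex I, fell outside the symbol rule and averaged 24.3 ± 1.94 CPM in Mll5+/- libraries and 28.9 ± 2.54 CPM in WT libraries (SD, n = 3 each), lower in every Mll5+/- library than in any WT library. Of all genes tested 4.64% were lower without overlap, as Gabpb1 and Ndufab1 were.

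Library totals were 21075570 to 28053173 counts in Mll5+/- libraries and 23884734 to 29730400 in WT libraries. All 16 listed microglial markers were present, with sums of 10740 to 12450 CPM in Mll5+/- libraries and 13150 to 18080 CPM in WT libraries. Without P2ry12, a microglial receptor at 1115, 1232 and 1087 CPM in Mll5+/- libraries and 4269, 1366 and 5499 CPM in WT libraries, the other 15 summed to 10760, 11210 and 9655 CPM in Mll5+/- libraries and 10700, 11780 and 12580 CPM in WT libraries, which overlap, and the median log2 fold change of the 16 was -0.02. Of the 16, P2ry12 and Gpr34 were lower in Mll5+/- libraries at an unadjusted p under 0.05 in edgeR (1.52% of all genes were), and P2ry12 passed in DESeq2 (adjusted p = 0.0343). Astrocyte markers (8 of 12 tested) summed to 268 to 559 CPM in Mll5+/- libraries and 387 to 574 CPM in WT libraries, with 2 genes lower in Mll5+/- libraries at that p. Of these Gja1, an astrocyte connexin, at 3.99 ± 2.51 CPM in Mll5+/- libraries and 24.9 ± 3.24 CPM in WT libraries (SD, n = 3 each), passed in DESeq2 (adjusted p = 0.0343). The 8 astrocyte markers did not move together, with 3 positive and 5 negative log2 fold changes and a median of -0.29. Slc1a3, at 323 ± 120 CPM in Mll5+/- libraries and 391 ± 101 CPM in WT libraries (SD, n = 3 each), overlapped between genotypes. Oligodendrocyte markers (5 of 9) summed to 98.2 to 134 CPM in Mll5+/- libraries and 140.3 to 185 CPM in WT libraries. Neuron markers (5 of 13) summed to 172 to 182 CPM in Mll5+/- libraries and 177 to 239 CPM in WT libraries. Border macrophage and monocyte markers (7 of 12) summed to 129 to 234 CPM in Mll5+/- libraries and 92.6 to 166 CPM in WT libraries. Of 9 markers of red cells, platelets and endothelium only Pecam1 was tested, at 5.76 to 19.4 CPM in Mll5+/- libraries and 4.37 to 11.6 CPM in WT libraries. Immediate early genes (7 of 13) summed to 104 to 137 CPM in Mll5+/- libraries and 78.1 to 138 CPM in WT libraries. Their part in the values of the respiratory genes was not tested. In sorted cells counted in bulk, fewer cells of a type and less RNA per cell cannot be told apart.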

How the data were processed

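The 6 libraries share 1 table of raw counts by gene symbol, as deposited, whose gene coordinates are on mm39. Per the labels' protocols, TRIzol-extracted RNA was reverse transcribed, amplified by SMART-seq and made into libraries with the TruePrep kit. FastQC, STAR, StringTie and DESeq2 were used, per the submitters' processing notes; their versions, the counting step and its strand setting are not stated there. Overlapping, antisense and near-identical genes can therefore share reads, and 19 of the 79 members overlap another listed gene in these coordinates. Among them, besides those given above, are Atp5j (with Gabpa), Uqcrc2 (with Pdzd9) and Ndufa11 (with Vmac). Amplified reads without molecular identifiers are counted as reads and not as molecules, and the floors given for counts of 0 cover counting error only.

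Libraries were grouped by the genotype in the labels. A low-count filter (filterByExpr by group, at least 10 counts and a total of 15) left 10832 genes and removed 1049. Genotypes were compared by the quasi-likelihood F test of edgeR 4.0.16 (R 4.3.3, with limma 3.58.1), with TMM scaling and robust dispersions, two-sided, adjusted by Benjamini-Hochberg over all genes tested at a threshold of 0.05. SEs and 95% intervals came from the same fit. CPM were computed from the deposited counts, and library deviations used log2(CPM + 1). A floor is the level that 3 counts give, 0.104 to 0.142 CPM across the libraries. P-values set the genotype difference against the spread between these libraries, with dispersion shared over genes. Nothing in the labels says how the animals were matched or handled. The fit was also run on simulated counts, where recovery of changed genes was required only at a dispersion far below that of these data. That run is no measure of the power at the spread of these libraries.

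The members, the lists and the tests were chosen with earlier results of these data known. Named genes were members under an unadjusted p of 0.05, members without overlap between genotypes, the 3 of smallest p per complex, the catalytic or core subunits and the subunit c genes, members at 0 in a library or spanning at least 10-fold, and at most 2 genes per pathway list. Cox7a2l, Ndufs4, Ndufa4 and the genes listed for narrow intervals or for their level per kilobase were named after their values were seen. A member that the rule names is not reported here. Transcript lengths came from GENCODE vM21 and promoter windows from RefSeq (GRCm38.p6), matched by symbol or synonym, and no coordinates were converted between builds. As alternatives, DESeq2 1.42.0, weighted limma-voom, other scalings and low-count filters, and the omission of each library in turn were tried.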

Additional observations from a re-analysis of the deposited data

How the results depend on the processing

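No paired analysis was possible because the labels give the animals of the 2 genotypes no shared replicate numbers. The count of members passing the adjusted threshold was 0 in edgeR and under each alternative run. The count over all genes, 0 in edgeR, was 29 in DESeq2 and ranged from 0 to 2 over the left-out libraries. Members under an unadjusted p of 0.05, 1 in edgeR, were 2 in DESeq2, 2 with DESeq2 size factors in edgeR and 2 without a low-count filter, and ranged from 0 to 1 over the left-out libraries (0 without Mll5+/- replicate 2, WT replicate 2 or WT replicate 3). Members without overlap between genotypes, 6 with all libraries, ranged from 10 to 15 with 1 library left out, where fewer values have to separate (12.7% to 19.0% of members, beside 17.2% to 20.9% of all genes). The median log2 fold change of the 79 members ranged from -0.0653 to 0.31 over the left-out libraries, with the highest value without WT replicate 3 (the cause was not tested). A filter at 5 CPM in 3 libraries kept 68 members of 8309 genes. Of the values of single named genes under an alternative, 411 kept their sign and their side of the threshold and 26 changed sign. The threshold was an adjusted p of 0.05, and the lowest adjusted p among these values was 0.702 (Atp5g1 in DESeq2). Keeping a side of it was therefore no measure of stability. In limma-voom the sign changed for Atp5g3 (-0.42), Sdhc (-0.30), Atp5b (0.003006), Ndufa11 (2.42) and Cycs (-0.11), and without a filter for Ndufs7 (-0.002152). Over the left-out libraries, the following log2 fold changes crossed 0: Ndufs7 from -0.43 to 0.58, Sdhc from -1.16 to 0.40, Cyc1 from -0.44 to 0.24, Cycs from -1.07 to 0.54, Atp5g3 from -1.01 to 1.07, Sdhd from -0.50 to 0.55, Cox4i1 from -0.42 to 0.11, Uqcrfs1 from -0.12 to 0.69, Ndufs3 from -0.12 to 0.37, Atp5c1 from -0.32 to 0.0849, Ndufs8 from -0.0343 to 0.51, Atp5b from -0.39 to 0.0816, Ndufa11 from -1.13 to 0.79 and Sdha from -0.11 to 0.47. None of the genes that changed sign had an unadjusted p under 0.05. No scaling moved the median of all genes by over 0.1 on the log2 scale. A pseudocount of 0.25 CPM in place of 1, chosen after the data were seen, gave a mean log2 level difference of 0.05 over all members, beside 0.04. Depth limits low genes: 3 counts correspond to 0.104 to 0.142 CPM.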

Other observations

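Nipsnap1, Coq9 and Atp5g1 were the 3 genes under an unadjusted edgeR p of 0.05 among the members and the pathway lists. Of all genes tested 2.88% met that p, and 1.36% did so with a higher level in Mll5+/- libraries. All 3 were higher in every Mll5+/- library than in any WT library, as were 4.68% of all genes tested. None passed in edgeR's test when adjusted over all genes, and in DESeq2 their adjusted p-values were 0.702 for Nipsnap1, 0.529 for Coq9 and 0.702 for Atp5g1. They were picked by their values, and nothing follows from their common direction.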
